A study of Mus musculus with 12 samples.

Results

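The myosin light chains and their kinases of mouse skeletal muscle were followed through 12 RNA-seq libraries as 10 genes of the 36008 listed in the deposited expression table. The genes were chosen by name and matched by symbol: the light chains Myl1, Mylpf, Myl2, Myl3, Myl4, Myl6, Myl6b and Myl12a and the kinases Mylk2 and Mylk4. All 10 were present, and all 10 passed the filter on low values, which kept 10481 genes at more than 5 TPM (an abundance scaled to the library total and divided by transcript length) in at least 1 library. The study compared 3 female mice flown in space for 9 weeks (M11, M12 and M20) with 3 kept on the ground in the same kind of housing (M02, M03 and M08). From each mouse the gastrocnemius and the quadriceps of the left hind limb were sequenced, which gives 4 groups of 3: ground gastrocnemius, flight gastrocnemius, ground quadriceps and flight quadriceps. Mice of both conditions were 30 weeks old at the start and received saline injections every 2 weeks, so that no group here was free of injection. Strain is C57BL/6 by the sample labels but BALB/c by the study's methods. Muscles were taken from frozen carcasses after thawing, in flown and ground mice alike.

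Each myosin motor head of a muscle fibre carries an essential and a regulatory light chain, small proteins that wrap around the lever arm of the heavy chain and stiffen it. Fast fibres use Myl1 (essential) and Mylpf (regulatory), whereas slow fibres and the cardiac ventricle use Myl3 and Myl2. The regulatory chain is phosphorylated by calmodulin-dependent light chain kinases, of which Mylk2 is the skeletal muscle enzyme, and in skeletal muscle this modification tunes force rather than switching contraction on. Myl6 is an essential chain of smooth muscle and non-muscle myosins, and Myl12a a regulatory chain of non-muscle myosin.

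Myl1 is the only one of the 10 genes with an exon event in the splicing tables, so exons that set its forms apart are shown here. The gene lies on the minus strand of chromosome 1 (mm10, chr1:66924295-66945404) and makes a long chain (2 protein-coding transcripts) and a short chain (2 protein-coding transcripts) from separate starts. The long form joins a first exon, with 114 coding bases at chr1:66944792-66944905, to a 28-base exon at chr1:66934246-66934273. The short form uses a 25-base exon at chr1:66934518-66934542 instead, and both then continue into the 144-base exon at chr1:66930186-66930329. Short-form transcripts have 28 coding bases before that exon, more than the 25-base exon alone holds, and 1 further protein-coding transcript with the 25-base exon has 0. All are on the minus strand and printed 5′ to 3′ in lower case, with no part marked.
Coding part of the first exon of the long form: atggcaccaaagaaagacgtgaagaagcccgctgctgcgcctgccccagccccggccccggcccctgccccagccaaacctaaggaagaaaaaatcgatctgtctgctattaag
28-base exon of the long form: atcgagttctctaaggagcaacaggagg
25-base exon of the short form: tccttcagtgctgaccagattgccg
The only annotated transcript that holds both the 28-base and the 25-base exon is a processed transcript without a coding sequence.

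For the genes whose levels separated the groups, the 250 bases before the RefSeq start (GRCm38.p6) are shown for Myl3, called between flight and ground, for Mylpf, called between the muscles, and for its partner Myl1, which passed the adjusted but not the fold threshold there. Windows were searched on both strands for the E-box CANNTG, bound by myogenic basic helix-loop-helix factors, the M-CAT element CATTCC, bound by TEAD factors, and the CArG box and the MEF2 site, and matches stand in capitals.
Myl3, chr9:110763428-110763677, plus strand: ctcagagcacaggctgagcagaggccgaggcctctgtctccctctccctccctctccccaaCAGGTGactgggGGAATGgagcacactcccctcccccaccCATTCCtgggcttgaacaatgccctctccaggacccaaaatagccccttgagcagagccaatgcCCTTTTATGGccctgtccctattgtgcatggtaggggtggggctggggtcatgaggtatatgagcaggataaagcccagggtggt
Mylpf, chr7:127211358-127211607, plus strand: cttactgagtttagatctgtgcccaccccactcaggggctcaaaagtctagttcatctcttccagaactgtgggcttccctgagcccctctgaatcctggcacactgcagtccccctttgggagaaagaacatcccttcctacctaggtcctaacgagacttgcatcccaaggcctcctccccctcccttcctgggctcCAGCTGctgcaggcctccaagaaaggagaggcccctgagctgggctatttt
Myl1, chr1:66945057-66945306, minus strand: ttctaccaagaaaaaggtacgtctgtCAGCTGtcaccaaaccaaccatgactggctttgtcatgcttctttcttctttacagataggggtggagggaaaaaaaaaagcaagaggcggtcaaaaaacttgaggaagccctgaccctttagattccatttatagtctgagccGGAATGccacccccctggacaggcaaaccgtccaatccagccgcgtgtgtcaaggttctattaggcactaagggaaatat
The Myl3 window held 1 E-box at -189 to -184 from the start, 2 M-CAT matches at -177 to -172 and at -149 to -144, and 1 CArG box at -85 to -76. The Mylpf window held a single E-box at -51 to -46, and the Myl1 window an E-box at -224 to -219 and an M-CAT match at -80 to -75. This Myl1 window lies near the starts of the long form only. Short-form transcripts start at chr1:66935354 and chr1:66935333 on the minus strand and had no window. Over 32851 RefSeq windows of this length, 66.2% held an E-box, 12.6% an M-CAT match, 1.47% a CArG box and 2.92% a MEF2 site. A match describes letters only. For Myl2, also called with flight, the table's windows at chr5:122092474-122092723 and chr5:122092939-122093188 lie upstream of the gene as GENCODE places it (chr5:122100951-122113472) and are not printed. The Myl2 windows held 1 and 2 E-boxes and 0 matches to the other motifs. The printed windows do not match the GENCODE gene bounds either. They lie inside the genes as placed there: Myl3 at chr9:110741861-110769798, Mylpf at chr7:127208890-127214298 and Myl1 at chr1:66924295-66945404. The table held windows for 9 of the 10 genes.

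The libraries carried the transcripts of skeletal muscle. The summed level of 6 muscle genes (Acta1, Ckm, Myh4, Tnnt3, Mb and Des) ranged from 65852 to 88857 TPM, with 0 of the 6 called in any comparison by limma and 2 higher and 1 lower in flight gastrocnemius at an unadjusted p under 0.05. No marker of any cell type list was at 0 in all 12 libraries. The listed values summed to between 923295 and 966638 TPM per library, with 18172 to 21265 genes above 0. The lowest of these gene counts was that of ground quadriceps M08, and the next lowest, 20291, that of flight quadriceps M11. TPM holds no read depth, so the precision of each level rests on the 3 mice of a group. One library stood apart for slow-fibre transcripts: in the quadriceps of ground mouse M02, 8 slow-fibre markers (Myh7, Tnni1, Tnnc1, Tnnt1, Tpm3, Myoz2, Atp2a2 and Casq2) summed to 693 TPM, against 1634 and 1724 TPM in the other ground quadriceps. The gastrocnemius of the same mouse had the highest sum of its group, 1642 TPM. Quadriceps results for slow light chains are therefore given with and without that library. It was picked by markers close in pattern to both slow chains, so leaving it out is not an independent check.

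Levels of the 10 genes differed widely on the TPM scale, which is per transcript length. Mylpf was highest, from 8235 to 19025 TPM over the 12 libraries, followed by Myl1 from 6599 to 9752 TPM. The kinase Mylk4 ranged from 1061 to 1862 TPM and Mylk2 from 334 to 690.4 TPM. Slow Myl2 lay between 158 and 575 TPM and slow Myl3 between 129 and 350.3 TPM, close to Myl6 at 115 to 146 TPM. Myl12a followed at 34.3 to 81.5 TPM, and Myl6b (6.54 to 11.5 TPM) and Myl4 (3.50 to 8.03 TPM) were the lowest. The 10 genes together made up 1.79% to 2.07% of the listed TPM in the gastrocnemius and 2.78% to 3.33% in the quadriceps, with no overlap between the muscles. The plot of levels by library shows every value.

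**Figure D1:**
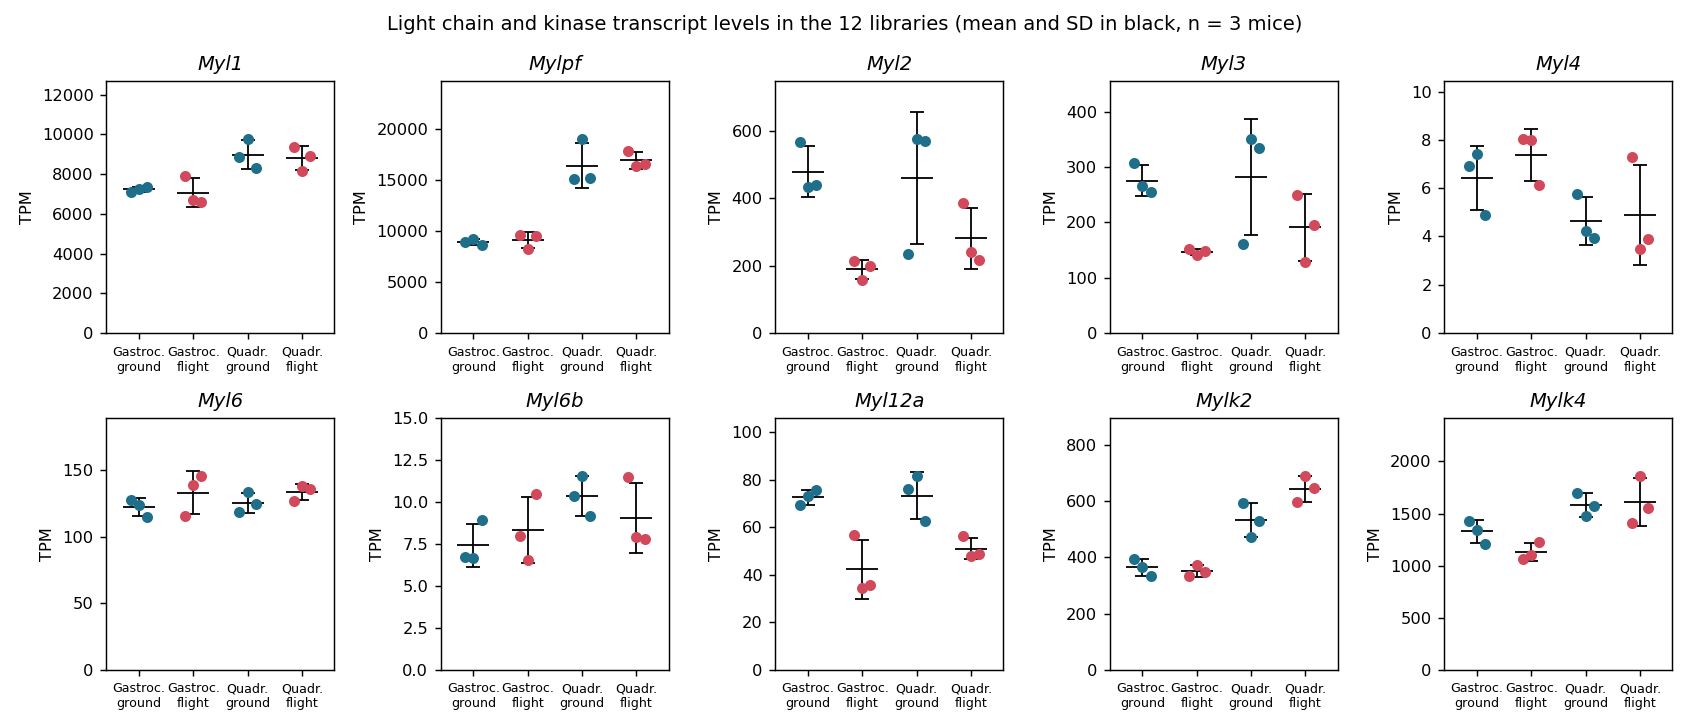
TPM (y axis, linear from 0) of each of the 10 genes in the 4 groups (x axis, Gastroc. for gastrocnemius and Quadr. for quadriceps), with 1 point per mouse, blue for ground and red for flight, and the mean and SD in black (n = 3). Myl2 and Myl3 of the flight gastrocnemius lie below every ground gastrocnemius value, and Mylpf and Mylk2 are higher in every quadriceps than in every gastrocnemius.

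In the gastrocnemius, 2 of the 10 genes were called between flight and ground, both lower, against 0.229% of all 10481 genes tested. Genes were called where the adjusted p was under 0.05 and the change over 1.5-fold. The 2 genes were Myl2 and Myl3, the slow and cardiac chains. At an unadjusted p under 0.05, 4 of the 10 were lower (Myl2, Myl3, Myl12a and Mylk4) and 0 higher, against 6.55% and 8.52% of all genes. Myl2, Myl3 and Myl12a lay below every ground library, as 8.55% of all genes did. The median change over the 10 genes was -0.044 on the log2 scale, against 0.019 over all genes.

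Myl2, the slow and cardiac regulatory light chain, measured 566, 432 and 438 TPM in the gastrocnemius of ground mice M02, M03 and M08 and 213, 158 and 198 TPM in flown mice M11, M12 and M20. Every ground value lay far above the highest flight value. The mean decreased from 479 ± 75.8 to 189.7 ± 28.2 TPM (SD, n = 3), a log2 difference of -1.33 (SE 0.144, 95% interval -1.67 to -0.99), or 2.51-fold, with an adjusted p of 0.0361 in limma's test on log2(TPM + 1).

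Myl3, the slow and cardiac essential light chain, measured 307, 265 and 254 TPM on the ground and 152, 141 and 148 TPM in flight, without overlap. Its mean decreased from 275 ± 27.9 to 147 ± 5.45 TPM (SD, n = 3), a log2 difference of -0.90 (SE 0.0895, 95% interval -1.11 to -0.69), or 1.86-fold (adjusted p = 0.0361). The ratio of Myl2 to Myl3 was 1.63 to 1.84 in ground and 1.12 to 1.40 in flight gastrocnemius, so Myl2 was lower relative to Myl3 in every flown mouse than in every ground mouse. Both calls stood close to the threshold. Without 1 library at a time, the adjusted p of Myl2 was 0.0971 without ground M02, 0.114 without M03, 0.053 without M08, 0.0175 without flight M11, 0.0778 without M12 and 0.145 without M20. That of Myl3 was 0.0646, 0.114, 0.0489, 0.0175, 0.0834 and 0.145 in the same order. Without the filter on low values the adjusted p was 0.204 for Myl2 and 0.106 for Myl3, and with all 12 libraries in 1 fit 0.0753 and 0.163. With 1 library left out the differences stayed between -1.42 and -1.20 for Myl2 and between -0.95 and -0.82 for Myl3.

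Other slow-fibre transcripts were counted beside these chains. The fitted change of all 8 slow-fibre markers was below 0 in the gastrocnemius (46.4% of all genes), with a median of -0.43, and 1 was called: Atp2a2, the slow calcium pump, at -0.88 (adjusted p = 0.0361). At an unadjusted p under 0.05, 4 of the 8 were lower and 0 higher. Their summed level was 1364 to 1642 TPM on the ground and 1007 to 1241 TPM in flight. In whole muscle, fewer slow fibres and less slow transcript per fibre cannot be told apart.

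In the quadriceps, 0 of the 10 genes were called between flight and ground by limma, against 0.0286% of all genes tested. At an unadjusted p under 0.05, 1 was higher (Mylk2) and 1 lower (Myl12a), against 5.66% and 5.18% of all genes. The same 2 genes were the ones without overlap between the groups, Mylk2 above as 9.24% of all genes and Myl12a below as 8.12%.

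Myl2 in the quadriceps measured 235, 575 and 570.0 TPM in ground mice M02, M03 and M08 and 384, 241 and 217 TPM in flown mice M11, M12 and M20. M03 and M08 exceeded every flown mouse, whereas M02 lay within the flight range. The log2 difference was -0.64 (SE 0.378, 95% interval -1.54 to 0.25, adjusted p = 0.566) with all libraries and -1.07 (adjusted p = 0.519) without M02. Without M03 or without M08 it was -0.43 (adjusted p = 0.753 and 0.758). Myl3 showed the same arrangement, with 160.3, 350.3 and 334 TPM on the ground and 249.6, 129 and 195 TPM in flight. Its log2 difference was -0.52 (SE 0.348, 95% interval -1.35 to 0.30, adjusted p = 0.612) with all libraries and -0.89 (adjusted p = 0.542) without M02. It was -0.32 (adjusted p = 0.802) without M03 and -0.36 (adjusted p = 0.79) without M08. Of the 8 slow-fibre markers, 5 lay below 0 in the quadriceps (47.9% of all genes), with a median of -0.16 and 0 called by limma, 1 at an unadjusted p under 0.05. Neither slow chain passed the test in the quadriceps, and the intervals include the falls seen in the gastrocnemius.

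Whether flight had unequal effects in the muscles was tested within mice by an interaction term. It was called for 0 of the 10 genes and for 0% of all genes, and 1 of the 10 (Mylk2) and 5.09% of all genes had an unadjusted p under 0.05. For Myl2 the gastrocnemius effect minus the quadriceps effect was -0.69 on the log2 scale (95% interval -1.65 to 0.27, adjusted p = 0.968). Without mouse M02 that difference was -0.13. For Myl3 it was -0.37 (95% interval -1.20 to 0.45, adjusted p = 0.976), and 0.068 without M02. The flight effects on the slow chains were therefore not shown to differ between the muscles.

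Slow chains made up a small part of each light chain class, which the plot of slow shares presents. Myl2 as a share of Myl2 plus Mylpf TPM was 5.93%, 4.48% and 4.82% in ground and 2.17%, 1.89% and 2.04% in flight gastrocnemius. Myl3 as a share of Myl1 plus Myl3 TPM was 4.15%, 3.53% and 3.34% in ground and 1.89%, 2.06% and 2.19% in flight gastrocnemius. Both shares were thus lower in every flown mouse than in every ground mouse, for either chain. In the quadriceps the Myl2 share averaged 2.69% ± 1.06 on the ground and 1.61% ± 0.427 in flight (SD, n = 3), and the Myl3 share 3.03% ± 1.10 and 2.10% ± 0.524, with overlap in both. That overlap rests on M02, at 1.54% for Myl2 and 1.78% for Myl3. The other ground quadriceps, at 2.93% and 3.61% for Myl2 and 3.47% and 3.85% for Myl3, lay above the highest flight shares of 2.10% and 2.60%.

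**Figure D2:**
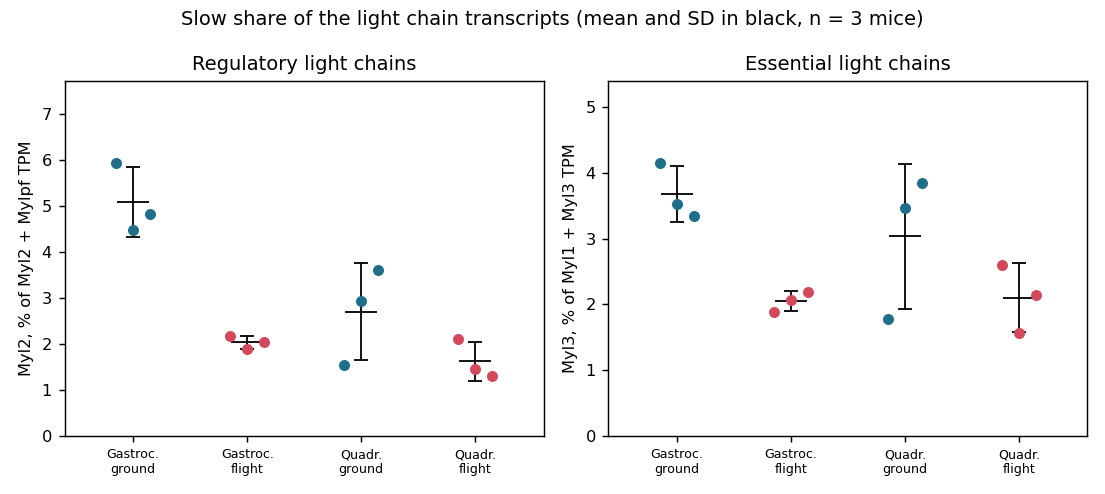
Slow share of the regulatory (Myl2 of Myl2 plus Mylpf, left) and essential (Myl3 of Myl1 plus Myl3, right) light chain TPM, in percent (y axis from 0), by group (x axis), with 1 point per mouse and the mean and SD in black (n = 3). In the gastrocnemius the flight points lie below all ground points, and in the quadriceps the low ground point is mouse M02.

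The fast chains differed little between flight and ground. Mylpf, the fast regulatory chain, measured 8979.7, 9211 and 8646 TPM in ground and 9604, 8235 and 9513 TPM in flight gastrocnemius, a log2 difference of 0.024 (95% interval -0.16 to 0.21, adjusted p = 0.912). In the quadriceps it measured 15079.7, 19025 and 15219 TPM on the ground and 17905, 16417 and 16548 TPM in flight, a difference of 0.052 (95% interval -0.20 to 0.31, adjusted p = 0.887). The groups overlapped in both muscles.

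Myl1, the fast essential chain, measured 7083, 7247 and 7351 TPM in ground and 7893, 6696 and 6599 TPM in flight gastrocnemius, and 8837, 9752 and 8324 TPM in ground and 9334, 8169 and 8909 TPM in flight quadriceps. Flight values lay on both sides of the ground values. The log2 differences were -0.038 (95% interval -0.23 to 0.16, adjusted p = 0.864) and -0.026 (95% interval -0.23 to 0.18, adjusted p = 0.936). The intervals of both fast chains in both muscles lay within 1.5-fold either way.

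Myl4, Myl6 and Myl6b also overlapped between flight and ground in both muscles. Myl4, the essential chain of the atrium and of embryonic muscle, measured 6.92, 7.40 and 4.90 TPM in ground and 8.03, 7.98 and 6.15 TPM in flight gastrocnemius (log2 difference 0.19, adjusted p = 0.631). In the quadriceps its means were 4.64 ± 0.997 and 4.89 ± 2.08 TPM (SD, n = 3), with an adjusted p of 0.981. Myl6 averaged 122 ± 6.68 and 133 ± 15.9 TPM in the gastrocnemius (log2 difference 0.12, adjusted p = 0.624) and 126 ± 7.49 and 134 ± 5.78 TPM in the quadriceps (0.092, adjusted p = 0.67). Its highest and lowest group means lay within 1.09-fold of each other, the narrowest of the 10 genes. Myl6b, an essential chain related to Myl6, averaged 7.41 ± 1.27 and 8.32 ± 1.97 TPM in the gastrocnemius and 10.3 ± 1.19 and 9.04 ± 2.09 TPM in the quadriceps, with adjusted p of 0.75 and 0.71.

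Myl12a, a regulatory chain of non-muscle myosin, was lower in every flown mouse in both muscles but passed the adjusted threshold in neither. In the gastrocnemius it measured 69.2, 73.1 and 75.5 TPM on the ground and 56.7, 34.3 and 35.7 TPM in flight. The log2 difference was -0.80 (SE 0.181, 95% interval -1.22 to -0.38, unadjusted p = 0.00242, adjusted p = 0.141). Flown mouse M11 stood above M12 and M20, and without it the difference was -1.03 with an adjusted p of 0.0142, past the threshold. In that fit 133 of all genes were called instead of 24. Without ground M02, M03 or M08 the adjusted p was 0.321, 0.34 and 0.312. Without flight M12 or M20 it was 0.308 and 0.447. In the quadriceps Myl12a measured 75.9, 81.5 and 62.4 TPM on the ground and 56.0, 48.0 and 48.7 TPM in flight, a log2 difference of -0.51 (SE 0.119, 95% interval -0.79 to -0.23, unadjusted p = 0.00362, adjusted p = 0.298). The difference between the muscles was -0.29 (95% interval -0.69 to 0.11, adjusted p = 0.967).

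Myl12a has a close copy beside it in sequence. Of its 31-base words, 22.9% also occur in transcripts of other genes, 17.4% in Myl12b, so reads from the shared parts had to be divided between the pair. The table lists Myl12b under 2 identifiers, of which the more abundant measured 105.8, 98.3 and 99.8 TPM in ground and 112, 135 and 121 TPM in flight gastrocnemius. That identifier was thus higher in every flown mouse (log2 difference 0.27, unadjusted p = 0.0166, adjusted p = 0.241) where Myl12a was lower. The less abundant identifier went the other way there, at 18.4, 19.3 and 17.4 TPM on the ground and 17.0, 16.2 and 14.8 TPM in flight. In the quadriceps the more abundant identifier measured 87.5, 99.4 and 113 TPM on the ground and 96.0, 90.5 and 112 TPM in flight, with overlap (log2 difference -0.0022, adjusted p = 0.996), although Myl12a was lower there too. Summed over Myl12a and Myl12b, the gastrocnemius held 193, 191 and 193 TPM on the ground and 186, 185 and 171 TPM in flight, and the quadriceps 181, 196 and 189.6 against 169, 159.6 and 175 TPM. The mean sums were 192 ± 1.41 and 181 ± 8.40 TPM in the gastrocnemius and 189 ± 7.56 and 168 ± 7.89 TPM in the quadriceps (SD, n = 3). The sums lay lower in flight without overlap in both muscles. The part of shared reads in the lower Myl12a was not tested. Of the other 9 genes, Myl1 shared 14.5% of its words with the pseudogene Mylf-ps and Myl6 11.4% with other genes, 8.6% with Gm5526, and the rest 0% to 4.1%.

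Of the kinases, Mylk2, the calcium- and calmodulin-dependent light chain kinase of skeletal muscle, measured 395, 365 and 335 TPM in ground and 334, 374 and 349 TPM in flight gastrocnemius (log2 difference -0.050, 95% interval -0.25 to 0.15, adjusted p = 0.819). In the quadriceps it measured 595, 474 and 529 TPM on the ground and 598, 690.4 and 646 TPM in flight. All 3 flown mice lay above the ground mice, although M11 exceeded M02 by little. The means were 533 ± 60.5 and 645 ± 46.0 TPM (SD, n = 3), a log2 difference of 0.28 (SE 0.0992, 95% interval 0.045 to 0.51, unadjusted p = 0.0258) that did not pass the adjusted test (adjusted p = 0.41). The interaction was -0.33 (95% interval -0.56 to -0.093, unadjusted p = 0.012, adjusted p = 0.939).

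Mylk4, a further member of the light chain kinase family, measured 1433, 1346 and 1207 TPM in ground and 1061, 1105 and 1228 TPM in flight gastrocnemius, where the highest flight value passed the lowest ground value. The log2 difference was -0.23 (SE 0.091, 95% interval -0.44 to -0.019, unadjusted p = 0.0364, adjusted p = 0.3). In the quadriceps the values of 1701, 1479.6 and 1568 TPM on the ground and 1412, 1862 and 1551 TPM in flight gave a difference of 0.016 (95% interval -0.25 to 0.28, adjusted p = 0.968). Mylk2 as a share of both kinases' TPM was 21.3% to 21.7% in ground and 22.1% to 25.3% in flight gastrocnemius, and 24.3% to 25.9% in ground and 27.1% to 29.8% in flight quadriceps. The share was thus higher in flight without overlap in each muscle, a description to which no test was applied.

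**Figure D3:**
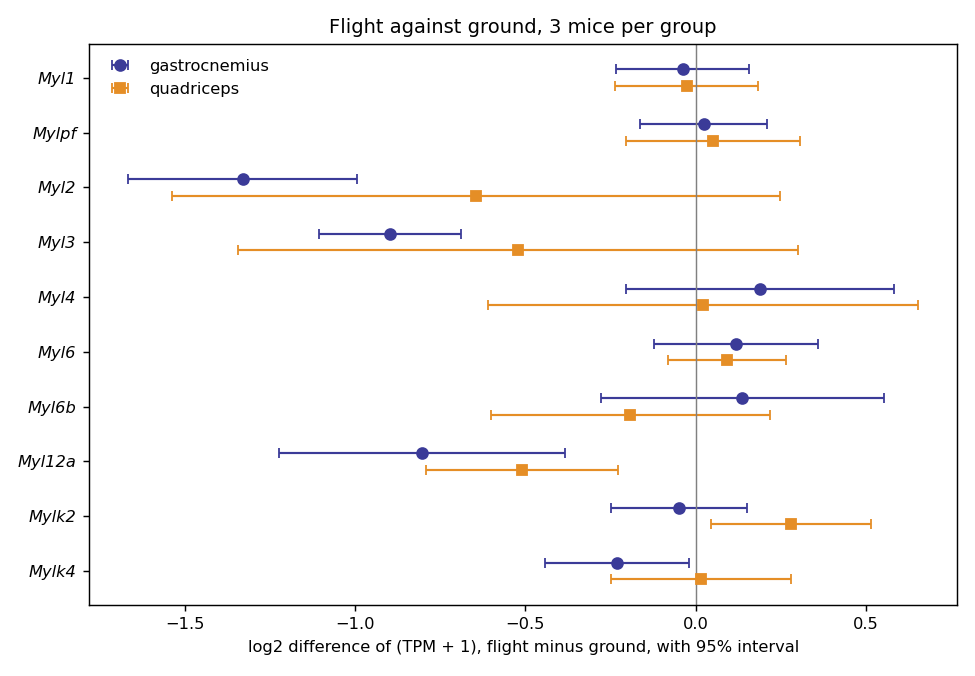
Log2 difference of (TPM + 1), flight minus ground (x axis), with its 95% interval for each of the 10 genes (y axis), in the gastrocnemius (blue circles) and the quadriceps (orange squares). In the gastrocnemius Myl2 at -1.33 and Myl3 at -0.90 are the 2 genes called, and in the quadriceps the intervals of Myl2 and Myl3 are wide and include 0.

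Between the muscles of the same mice, the fast chain Mylpf and the kinase Mylk2 differed most. On the ground 1 of the 10 genes was called (Mylpf, lower in the gastrocnemius), against 3.20% of all genes, of which 2.22% were lower calls. In flown mice 2 were called (Mylpf and Mylk2, both lower in the gastrocnemius), against 3.34% of all genes, of which 2.34% were lower calls. Ranges lay below the quadriceps without overlap for 5 of the 10 on the ground and for 5 in flight, as for 28.3% and 24.4% of all genes. The median of all genes was itself -0.12 on the ground and -0.11 in flight, and that of the 10 genes -0.15 and -0.32.

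Mylpf averaged 8946 ± 284 TPM in the ground gastrocnemius and 16441 ± 2239 TPM in the ground quadriceps (SD, n = 3), a log2 difference of -0.87 (SE 0.0731, 1.83-fold, adjusted p = 0.00249). In flight the means were 9117 ± 766 and 16957 ± 824 TPM, a difference of -0.90 (SE 0.0731, 1.86-fold, adjusted p = 0.00152). Every quadriceps value exceeded every gastrocnemius value by a wide margin. Without the filter on low values the adjusted p on the ground was 0.0562. Its partner Myl1 was lower in the gastrocnemius by less, -0.31 on the ground (1.24-fold, adjusted p = 0.0298) and -0.32 in flight (1.25-fold, adjusted p = 0.0224), under the fold threshold. With rescaled TPM the Myl1 differences were -0.21 and -0.23 (adjusted p = 0.132 and 0.104). The adjusted p of Myl1 was 0.0815 and 0.0744 without the variance trend, and 0.243 and 0.228 without the filter. The ratio of Mylpf to Myl1 was accordingly 1.18 to 1.44 in the gastrocnemius and 1.71 to 2.01 in the quadriceps.

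Mylk2 was lower in the gastrocnemius by -0.54 on the ground (SE 0.0727, 1.45-fold, adjusted p = 0.00791) and by -0.87 in flight (SE 0.0727, 1.83-fold, adjusted p = 0.00152). Without mouse M03 the ground difference of Mylk2 was -0.62 (adjusted p = 0.0424), past both thresholds. It was -0.52 (adjusted p = 0.0543) without M02 and -0.48 (adjusted p = 0.0578) without M08, past neither threshold. Mylk4 was lower by -0.25 (adjusted p = 0.103) and by -0.50 (1.41-fold, adjusted p = 0.0139). The slow chains did not separate the muscles on the ground: Myl2 differed by 0.16 (95% interval -0.52 to 0.84) and Myl3 by 0.047 (95% interval -0.54 to 0.63), and without M02 both differences were -0.40, the other way. In flight Myl2 differed by -0.53 (adjusted p = 0.27), with each gastrocnemius below each quadriceps, and Myl3 by -0.33 (adjusted p = 0.431). Myl4 was the gene with the largest difference toward the gastrocnemius, 0.39 on the ground and 0.56 in flight (adjusted p = 0.192 and 0.0847), with overlap in both. Myl6b lay lower in the gastrocnemius without overlap on the ground (-0.44, adjusted p = 0.154) and overlapped in flight (-0.11, adjusted p = 0.738).

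**Figure D4:**
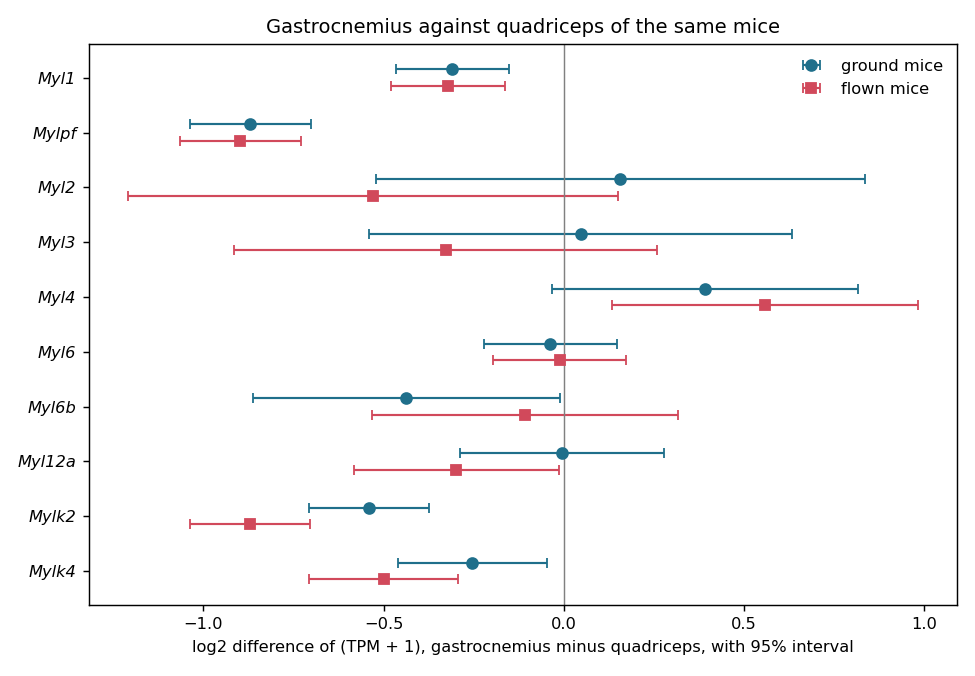
Log2 difference of (TPM + 1), gastrocnemius minus quadriceps of the same mice (x axis), with its 95% interval for each of the 10 genes (y axis), in ground (blue circles) and flown mice (red squares). Mylpf lies at -0.87 and -0.90, Mylk2 at -0.54 and -0.87, and the intervals of Myl2 and Myl3 include 0 in both conditions.

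The order of the 4 group means followed from these differences. Mylpf and Mylk2 ran from flight quadriceps over ground quadriceps to the gastrocnemius groups, which were set apart from the quadriceps. Mylk4 also ran from the quadriceps to the gastrocnemius groups. Its flight quadriceps reached down to 1412 TPM (M11), below the ground gastrocnemius of M02 at 1433 TPM. Myl1 began with ground quadriceps. The flight and ground neighbours within a muscle overlapped for Mylpf, Myl1 and Mylk4, whereas for Mylk2 the quadriceps groups were apart and the gastrocnemius groups overlapped. Myl2 was highest in ground gastrocnemius, followed by ground quadriceps and flight quadriceps with overlapping ranges, and flight gastrocnemius was apart at the bottom. Myl3 and Myl12a ran from ground quadriceps and ground gastrocnemius, which overlapped, down to flight quadriceps and flight gastrocnemius, which also overlapped, and ground gastrocnemius was apart from flight quadriceps. For Myl4, Myl6 and Myl6b all neighbours overlapped.

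In the splicing tables, 1 skipped-exon event belonged to the 10 genes, the 28-base exon of Myl1 shown above, between the 25-base and the 144-base exons, and it was listed for both muscles. Inclusion is given as PSI (percent spliced in, the length-corrected share of junction reads that include the exon). In the gastrocnemius PSI was 42.3%, 44.1% and 33.8% in the ground samples, from 99, 103 and 119 junction reads, and 25.7%, 32.5% and 33.3% in the flight samples, from 139, 123 and 100 reads. The groups did not overlap, but the lowest ground and the highest flight value nearly met. The means were 40.1% ± 5.49 and 30.5% ± 4.17 (SD, n = 3), a difference of -9.54 points, with an exact two-sided permutation p of 0.1, the smallest that 3 against 3 samples can give. In limma's test over all 2118 kept events the log2 ratio of inclusion to skipping differed by -0.60 (SE 0.371, adjusted p = 0.659). The event was not called, so 0 of 1 event passed, against 0.378% of all kept events, and 16.2% of them had groups without overlap.

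In the quadriceps PSI of this exon was 39.4%, 32.8% and 41.7% on the ground and 48.1%, 43.2% and 35.6% in flight, from 68 to 108 reads per sample. Here flight values lay on both sides of the ground values. The means were 38.0% ± 4.62 and 42.3% ± 6.29 (SD, n = 3), a difference of 4.29 points (exact two-sided permutation p = 0.4, adjusted p = 0.924 in limma), and 0 of 2062 events were called (0%), while 7.76% had an unadjusted p under 0.05. The counts are small for a gene of this abundance. The event drew 15.9 junction reads per 1000 TPM of Myl1 in the gastrocnemius and 10.03 in the quadriceps, against medians of 612 and 574 over the 2092 and 2036 kept events of genes with a TPM value, of which 87 and 69 were lower. The junction of the 28-base with the 144-base exon is shared with the coding long form by the annotation, and that of the 25-base with the 144-base exon with the short form, so inclusion reads do not belong to the non-coding transcript alone. PSI is not a measure of the share of long and short chains. The plot of PSI by sample gives all 12 values.

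**Figure D5:**
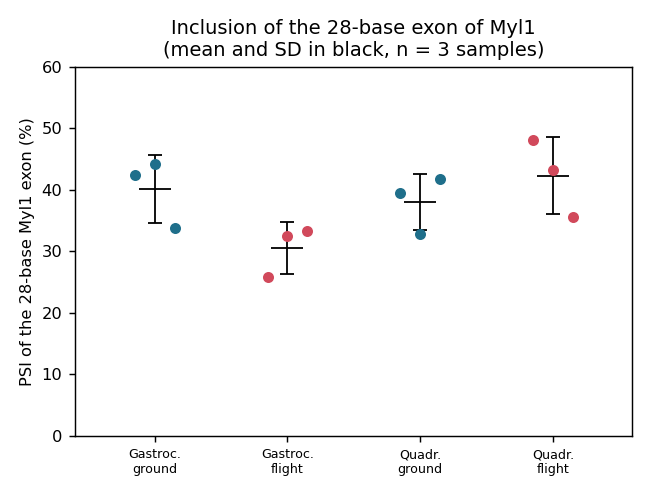
PSI of the 28-base Myl1 exon in percent (y axis from 0) by muscle and condition (x axis), with 1 point per sample, blue for ground and red for flight, and the mean and SD in black (n = 3). The flight gastrocnemius lies at 25.7% to 33.3% and the ground gastrocnemius at 33.8% to 44.1%, while the quadriceps groups overlap.

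The genes closest in pattern over the 12 libraries were found by Pearson's r of log2(TPM + 1), given as a description since the libraries share mice and both muscles enter. Myl2 and Myl3 were each other's nearest gene (r = 0.95), followed for Myl2 by Atp2a2 (0.88) and for Myl3 by Tnnc1, the slow troponin C (0.91). Mylpf was nearest to Ak1, a muscle adenylate kinase (0.99), and Myl1 to Uqcrb, a subunit of respiratory complex III (0.98), and Pvalb, the calcium buffer of fast fibres (0.97). Mylk2 was nearest to Myom2, an M-band protein (0.97), and, after Ncapd2, to Mstn, a negative regulator of muscle mass (0.95), and Mylk4 to Hspa8, a chaperone (0.96). Myl12a was nearest to Tcta (0.96), followed by Trp53inp2 (0.94) and Sdhb, a subunit of respiratory complex II (0.94). Myl4, Myl6 and Myl6b had lower best values, 0.90 with Lzts2, 0.89 with Hsp90aa1 and 0.88 with Sco1. Among the 10 genes, Mylpf also followed Myl1 (0.92) and Mylk2 (0.88), and Mylk2 followed Mylk4 (0.86).

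Related genes outside the 10 were counted by list. Between flight and ground, 0 genes of 7 related lists were called in either muscle by limma: other light chain genes (4 identifiers tested, 2 of them of Myl12b), other kinases acting on light chains (7 tested), calmodulin (3), the light chain phosphatase and its inhibitors (7), the light chain ligase Mylip (1), sarcomeric heavy chains (8) and non-sarcomeric heavy chains (4). At an unadjusted p under 0.05, 2 calmodulin genes, 2 other kinases and 1 phosphatase gene were higher in the flight gastrocnemius. Of the other light chains 1 was higher, of the sarcomeric heavy chains 1 higher and 1 lower, and of the non-sarcomeric chains 1 lower. In the quadriceps 1 other kinase was higher, and 1 gene was higher and 1 lower among both the phosphatase genes and the sarcomeric heavy chains. Median log2 changes in the gastrocnemius ran from -0.24 for the sarcomeric heavy chains to 0.25 for calmodulin and 0.28 for Mylip, and in the quadriceps from -0.02 to 0.17 apart from Mylip at -0.22. Among the heavy chains, Myh2, the IIa chain, was lower in flight by -0.34 and -0.36 in the gastrocnemius and quadriceps (adjusted p = 0.218 and 0.298) and Myh4, the IIb chain, higher by 0.17 and 0.21 (adjusted p = 0.278 and 0.445). Between the muscles on the ground, Calm3, 1 of the 3 genes for calmodulin, was called lower in the gastrocnemius (-0.66, adjusted p = 0.00751) and Myh10, a non-muscle heavy chain, higher (0.59, adjusted p = 0.04). In flown mice 0 genes of these lists were called between the muscles by limma. At an unadjusted p under 0.05, in each condition 3 calmodulin genes and 3 phosphatase genes were lower in the gastrocnemius and 2 non-sarcomeric heavy chains, 1 other light chain and 1 other kinase higher. Of the sarcomeric heavy chains 3 were higher and 1 lower on the ground and 2 higher and 2 lower in flight. Among them Myh4 was lower in the gastrocnemius by -0.49 and -0.53 (adjusted p = 0.00588 and 0.00397), under the fold threshold. Mylip was lower on the ground, and 1 other kinase in flight. The share of all genes at an unadjusted p under 0.05 between the muscles is not given here. These counts are therefore not set against a background. The median of all genes was itself below 0 between the muscles, at -0.12 on the ground and -0.11 in flight. Ranges lay below the quadriceps without overlap for 28.3% and 24.4% of all genes.

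Markers of other fibre and cell types moved with some of these results, and their part was not tested. Of 10 fast-fibre markers, 0 were called with flight in either muscle by limma, with 4 higher and 1 lower in the gastrocnemius and 1 of each in the quadriceps at an unadjusted p under 0.05, and in each condition 8 were lower and 2 higher in the gastrocnemius at that p, with 1 called (Pvalb) and medians of -0.51 on the ground and -0.49 in flight. The summed fast markers were 70774 to 80224 TPM in the gastrocnemius and 96543 to 110641 TPM in the quadriceps, beside the lower Mylpf and Myl1 in the gastrocnemius. Schwann cell markers summed to 138 to 302 TPM in the gastrocnemius and 53.7 to 86.7 TPM in the quadriceps, and 4 of 4 tested were called higher on the ground and 3 in flight. Smooth muscle markers (4 of 6 tested) were at 168 to 187 TPM in ground and 193 to 212 TPM in flight gastrocnemius, without overlap. In the quadriceps they were at 124 to 142 TPM on the ground and 128 to 173 TPM in flight. Of these markers 0 were called by limma, and 4 were higher in the gastrocnemius at an unadjusted p under 0.05 in each condition. Adipocyte markers were at 45.9 to 111 TPM in ground and 25.4 to 36.7 TPM in flight quadriceps, with 0 of 4 tested called with flight by limma, 4 lower at an unadjusted p under 0.05, and 3 called lower on the ground in the gastrocnemius. Of the lists for endothelium (5 tested), macrophages (2), fibroblasts (5), red blood cells (5) and satellite cells (1), 0 genes were called in any of these comparisons by limma. At an unadjusted p under 0.05, in each condition 1 macrophage gene was lower in the gastrocnemius, 2 fibroblast genes on the ground and 2 red blood cell genes in flight. As for the related lists, marker counts between the muscles at that p are not set against a share of all genes. The median of all genes was -0.12 on the ground and -0.11 in flight. Red blood cell markers summed to 382 to 817 TPM in ground and 351 to 539 TPM in flight gastrocnemius. Macrophage markers (2 of 5 tested) summed to 12.8 to 15.8 TPM in ground and 16.6 to 17.5 TPM in flight gastrocnemius. Their sums were 14.5 to 18.9 TPM in ground and 20.7 to 22.2 TPM in flight quadriceps.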

How the data were processed

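Poly(A) RNA of 2 muscles from 6 mice was sequenced by the authors as stranded single-end reads of 50 bases. Per the labels they used kallisto 0.46.0, STAR 2.7.1a on mm10 and DESeq2 1.26.0, and by the study's methods they summed transcripts per gene with tximport and counted exon junctions with rMATS-turbo. The deposited expression table holds TPM per gene as made by the authors. The deposited splicing tables list inclusion and skipping junction reads per sample with the effective length of each form. Their columns of FDR and PSI difference, the authors' own comparison, were not used.

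Genes above 5 TPM in at least 1 of the 12 libraries were tested with limma 3.58.1 (R 4.3.3), a moderated linear model with a mean-variance trend, on log2(TPM + 1), since TPM is not a count. P-values were two-sided, adjusted by Benjamini-Hochberg over all 10481 genes, and called at adjusted p under 0.05 and over 1.5-fold. A fold change on this scale understates the change of low genes. Flown mice were set against ground mice separately in each muscle. The muscles were compared over 12 libraries with mouse as a block, and the difference of the flight effects as an interaction. The pairing comes from the mouse names in the titles. Deviations from the group means correlated between the muscles of a mouse with r from -0.12 to 0.33.

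Splicing events were kept where each group averaged more than 10 junction reads, and left out where all 6 samples had PSI of 0.95 or higher, or all of 0.05 or lower. The tested value was the log2 of inclusion over skipping reads, with 0.5 added to each and each divided by its effective length, again in limma. Calls required an adjusted p under 0.05 and a PSI difference over 5%. Both tests were also run on simulated data, whose outcome is not given here and from which nothing is drawn. The simulated expression values held no effect of mouse, so they cannot speak for the fits with mouse as a block. Symbols were matched by Ensembl identifier, and 152 of 36008 identifiers had none. Exons and 31-base words come from GENCODE vM21 (GRCm38), and promoters from RefSeq.

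The genes named were the 10 members, for each the 3 genes with the highest Pearson r, and from related and marker lists those called or with the 3 smallest adjusted p. Members and lists were chosen with earlier results of these data known. Alternatives were another pseudocount, no filter, no trend, rescaled values, no fold threshold, other fits and each library left out. Reads, alignments and other event types were not used here.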

Additional observations from a re-analysis of the deposited data

How the results depend on the processing

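The falls of Myl2 and Myl3 in the flight gastrocnemius kept their direction under every alternative run, but 0 instead of 2 of the 10 genes were called without the filter on low values, without the variance trend and with all 12 libraries in 1 fit. The adjusted p of Myl2 was 0.204, 0.0654 and 0.0753 under these 3 settings and that of Myl3 0.106, 0.0654 and 0.163. Over all genes, 24 calls became 4, 5 and 32. With 1 library left out, 0 to 3 of the 10 genes were called there, and 1 to 133 of all genes. Between the muscles on the ground 0 genes were called without the filter (Mylpf, adjusted p = 0.0562), 3 without a fold threshold (Myl1, Mylpf and Mylk2) and 1 to 2 with a mouse left out, where Mylk2 was added without M03. In flight 4 were called without a fold threshold (Myl1, Mylpf, Mylk2 and Mylk4). The cause of these shifts was not tested.

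Ground and flown mice share only a number in the titles, and the deviations of same-numbered libraries correlated with r from -0.18 to 0.11. In the gastrocnemius 2 of 6 libraries and in the quadriceps 0 of 6 correlated best with their own number. With the replicate number as a block, 0 of the 10 genes were called in the gastrocnemius, with log2 differences of -1.33 for Myl2 and -0.90 for Myl3 (adjusted p = 0.0603 for both), and 0 in the quadriceps. Without the mouse block, 1 and 2 genes were called between the muscles and 0 in the interaction, as with it. For splicing, no paired analysis was possible because the splicing tables do not name the mouse behind a value. No alternative called the Myl1 exon, and the edgeR alternative on junction reads was not run.

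Directions reversed only for values that were not called. With rescaled TPM, Mylpf in the gastrocnemius was at -0.0084 and Mylk4 in the quadriceps at -0.0081 for flight against ground, Myl6 at 0.059 and 0.075 between the muscles on the ground and in flight, and Myl12a at 0.090 on the ground. With 1 library left out, the flight differences in the gastrocnemius ran from -0.12 to 0.0087 for Myl1, from -0.015 to 0.096 for Mylpf, from -0.021 to 0.28 for Myl6b and from -0.11 to 0.0085 for Mylk2. In the quadriceps they ran from -0.079 to 0.036 for Myl1, from -0.0061 to 0.16 for Mylpf, from -0.25 to 0.19 for Myl4 and from -0.095 to 0.10 for Mylk4. Between the muscles on the ground they ran from -0.40 to 0.44 for Myl2, from -0.40 to 0.27 for Myl3, from -0.11 to 0.00079 for Myl6 and from -0.14 to 0.070 for Myl12a, and in flight from -0.067 to 0.052 for Myl6 and from -0.35 to 0.073 for Myl6b. The interaction of Myl3 ran from -0.60 to 0.068. With 3 mice per group and no read depth, differences within these ranges were not resolved.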
